A study of Mus musculus with 17 samples.

Results

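The genes described here encode 6 subunits of the NMDA receptor: Grin1, Grin2a, Grin2b, Grin2c, Grin2d and Grin3a. They were chosen by name as a gene family and found by symbol, and all 6 were present among the 36293 genes of each bulk table and the 37608 genes of the single-nucleus tables. The NMDA receptor is a glutamate-gated cation channel that needs glutamate and a co-agonist, glycine or D-serine, to open. It is assembled from obligatory GluN1 subunits (Grin1) together with GluN2 subunits (Grin2a to Grin2d), which bind glutamate and set the kinetics of the channel, or GluN3 subunits (such as Grin3a), which bind glycine and lower calcium permeability. In the cortex Grin2b is known as the GluN2 gene of early life and Grin2a as the one that gains with maturation. Calcium entering through these channels starts the synaptic plasticity for which the receptor is best known.

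The samples came from male C57BL/6 mice that either went through chronic unpredictable stress (CUS), a series of 3 varied stressors per day for 12 days, or were handled daily in a separate room as controls. Bulk nuclear RNA-seq was made from the medial prefrontal cortex (mPFC) of 4 control and 5 CUS mice, labelled postnatal day 90 and taken after behavioral testing. Single-nucleus RNA-seq on droplets (sNucDrop-seq) was made from the neocortex of 4 other control and 4 other CUS mice, labelled postnatal day 80. Each library was 1 mouse, and nothing in the labels says which of the control and CUS mice were housed or processed together.

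The members share a channel core, and the stretch of 30 coding bases most alike among all 6 genes is shown for 5 of them because it lies in that core, at the end of the M3 segment that forms the gate, and shows how far even the most alike part of these genes differs. The sequences were read from GENCODE vM21 transcripts (GRCm38, the same assembly as mm10), run 5′ to 3′ on the coding strand, which is the minus strand for all 6 genes, and carry capitals where a base differs from Grin1.
Grin1, chr2:25297193-25297222: tacactgccaacctggcagccttcctggtg
Grin2a, chr16:9653441-9653470: tacacAgccaacctggcTgccttcAtgAtC
Grin2b, chr6:135772238-135772267: tacactgccaacTtAgcCgccttcAtgAtC
Grin2c, chr11:115253743-115253772: tacacGgccaaTctggcagccttcAtgAtC
Grin3a, chr4:49770464-49770493: tacacAgcGaacTtggcTgcTGtcAtggtA
Each stretch lay within a single coding exon. Grin2a and Grin2c differed from Grin1 at 5 of the 30 bases, Grin2b at 6 and Grin3a at 8. The longest identical run between the transcripts of any pair of members was 34 bases, between Grin2b and Grin2c, and it was 24 bases between Grin2a and Grin2b. The bulk counts were made from uniquely mapped reads.

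Bulk libraries held 26188825 to 30525015 reads in genes, and the nuclei kept after filtering numbered 26643, with 1935 to 4230 per mouse and a median of 2012 unique molecular identifiers (UMIs) per nucleus. Nuclei were grouped into 26 classes with over 200 nuclei each, after the member genes had been left out of the genes used for clustering. A class is named after a cell type only where its leading genes held that type's markers, and is otherwise named by its leading gene. Striatal-like nuclei made up 7.73% to 10.35% of the nuclei of each control mouse and 2.45% to 9.05% of each CUS mouse, although the labelled tissue is neocortex. All CUS mice but replicate 2 lay below the controls in this share. Striatal-like nuclei are part of the sums over all nuclei. Of the 26623 barcodes kept, 20 occurred in 2 libraries. Microglia-like nuclei held Snap25, a gene of the synaptic release machinery, at 1832 CPM (UMIs scaled to the same total in each class), against 2285 CPM in Ex_L2/3-like neurons, so neuronal RNA was present in nuclei that should lack it.

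In bulk mPFC nuclear RNA, both major GluN2 genes were higher in CUS mice than in controls, and Grin1, Grin2c, Grin2d and Grin3a did not pass the threshold. Of the 6 members 2 were called higher in CUS and 0 lower (edgeR quasi-likelihood test, adjusted p under 0.05 over all genes). Over all 18394 genes tested, 606 were called, which is 3.29%, with 1.16% higher and 2.13% lower in CUS. Bulk levels are given as CPM of reads scaled with TMM factors.

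Grin2a (ENSMUSG00000059003, chr16:9567898-9995560) encodes GluN2A, the subunit of fast mature synaptic receptors. Its level in the control mice was 1061, 1165, 1502 and 978 CPM, and in the CUS mice 1969, 1771, 1827, 1671 and 1645 CPM. The lowest CUS mouse was above the highest control mouse, and control replicate 3 lay nearest to the CUS group. The mean rose from 1177 ± 230 (SD, n = 4) to 1777 ± 130 CPM (SD, n = 5), a log2 fold change of 0.59 ± 0.11 (SE) with an edgeR adjusted p of 0.0159. Without control replicate 2 the adjusted p of Grin2a was 0.0520.

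Grin2b (ENSMUSG00000030209, chr6:135713233-136173511) encodes GluN2B, which carries slower currents and binds CaMKII. The control mice had 1631, 1696, 1907 and 1318 CPM and the CUS mice 2059, 2157, 2182, 2071 and 2088 CPM. The groups did not overlap, and the CUS mice lay close together. The mean rose from 1638 ± 244 (SD, n = 4) to 2111 ± 54.7 CPM (SD, n = 5), a log2 fold change of 0.37 ± 0.09 (SE) with an edgeR adjusted p of 0.0421. The Grin2b call was near the threshold: leaving out 1 mouse gave adjusted p-values of 0.00642 to 0.0998, and the call was kept only without control replicate 3 or control replicate 4. Grin2a and Grin2b were the 2 members whose groups did not overlap, and among all genes tested in bulk the groups did not overlap in 8.76%, with CUS higher in 4.06%.

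Grin1 (ENSMUSG00000026959, chr2:25291181-25319187), the subunit that every NMDA receptor contains, had 148, 162, 182 and 136 CPM in the control mice and 182, 170, 170, 179 and 189 CPM in the CUS mice. Control replicate 3 was as high as the CUS mice, so the groups overlapped. The log2 fold change was 0.18 ± 0.08 (SE) with an edgeR adjusted p of 0.197, and without control replicate 3 it was 0.25 with an adjusted p of 0.0310.

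The remaining members were far less abundant in bulk. Grin3a (ENSMUSG00000039579, chr4:49661611-49845744), the glycine-binding GluN3A subunit, had 78.9, 79.2, 85.7 and 73.6 CPM in controls and 74.2, 72.2, 76.9, 71.8 and 73.4 CPM in CUS mice. The groups overlapped, with a log2 fold change of -0.11 ± 0.05 (SE) and an edgeR adjusted p of 0.279. Grin2c (ENSMUSG00000020734, chr11:115249169-115267243), a GluN2 gene best known from cerebellar granule cells, had 15.4 to 21.0 CPM in controls and 16.5 to 20.7 CPM in CUS mice, with an edgeR adjusted p of 0.764. Grin2d (ENSMUSG00000002771, chr7:45831883-45878378), the GluN2 subunit of very slow currents, had 3.38 to 4.18 CPM in controls and 3.98 to 5.37 CPM in CUS mice, with an edgeR adjusted p of 0.273. It rested on 1110 reads over all 9 mice, and Kdelr1, on the other strand, overlaps 5607 bases of it and held 3795 reads. Whether the bulk counting used the strand of a read is not stated, so reads of these overlapping genes may not be told apart. The 7th gene of the family, Grin3b, had 0 to 5 reads per mouse and was not tested.

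**Figure D1:**
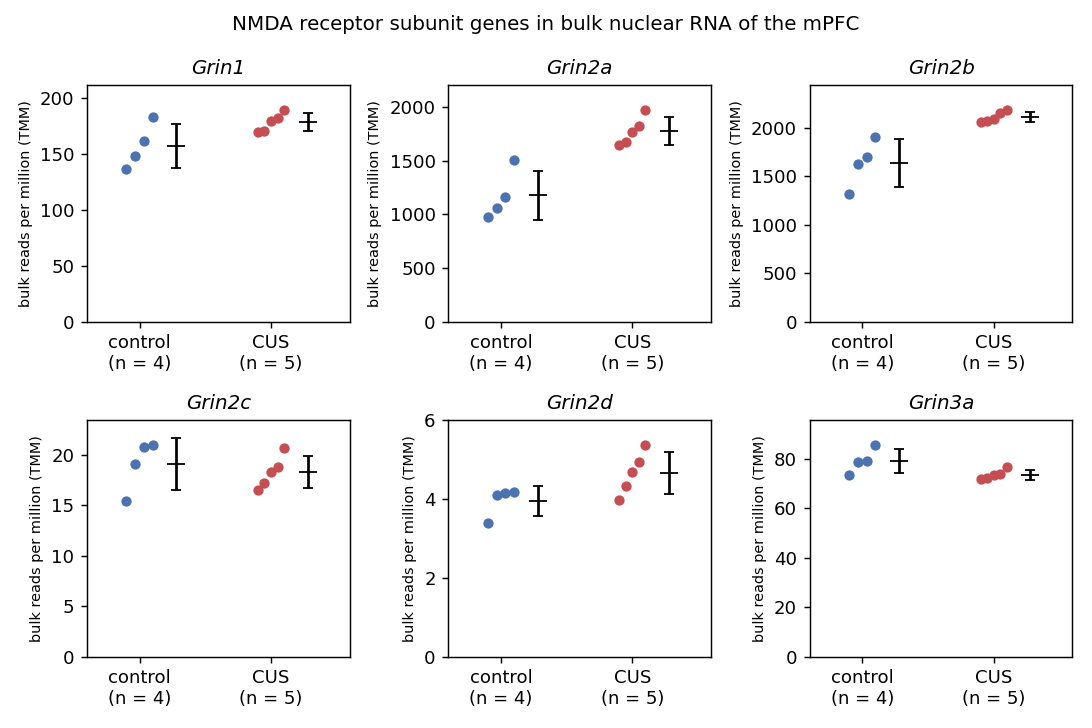
Level of each member in bulk mPFC nuclear RNA, in TMM-scaled CPM on an axis from 0, with 1 point per mouse (blue, 4 control; red, 5 CUS) and the mean ± SD as a black bar. Grin2a and Grin2b are the members whose CUS mice all lie above the control mice, and the other 4 genes overlap.

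Scaled by the length of the gene from start to end, since nuclear RNA holds unspliced transcripts, Grin1 had the highest level in control mice at 5.61 ± 0.71 CPM per kb (SD, n = 4), followed by Grin2b at 3.56, Grin2a at 2.75, Grin2c at 1.06, Grin3a at 0.431 and Grin2d at 0.0850 CPM per kb. Grin2a and Grin2b span 428 and 460 kb, against 28.0 kb for Grin1. Reads of spliced transcripts do not spread over the whole gene and weigh more per kb in a short one. The order of the members therefore depends on this scaling, and spliced and unspliced reads were not separated. The 558 other protein-coding genes of 300 kb or more had a median log2 fold change of -0.02 in bulk, and 33 of them were called higher and 44 lower in CUS. Of all 15106 protein-coding genes tested, 172 were called higher and 341 lower, so calls in both directions were more frequent among these long genes.

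Markers of neuron and glial types also differed between the bulk groups. The summed level of 6 excitatory neuron markers, most of it from Arpp21 and Sv2b, was 1958 to 2563 CPM in controls and 2688 to 2789 CPM in CUS mice, a ratio of means of 1.19, without overlap. In nuclei of control mice this sum was 2375 to 3872 CPM in excitatory classes, but also 2742 in Striatal-like and 2063 in Microglia-like nuclei. It is therefore not a measure of excitatory neurons alone. All 6 were higher in CUS, and 2 of them were called (Neurod6 and Nrn1), while Arpp21 at 1202 and 1431 CPM (edgeR adjusted p = 0.110) and Sv2b at 637 and 768 CPM (edgeR adjusted p = 0.0582) were not. The 7 marker lists of excitatory layer types had ratios of means from 0.947 to 1.203, each with overlap. The highest ratio was that of Ex_L6b, although 1 of its 4 genes tested was higher in CUS and their median log2 fold change was -0.28. In Ex_L6, with a ratio of 1.078, 2 of 7 were higher and the median was -0.07. The oligodendrocyte markers summed to 328 to 751 CPM in controls and 343 to 434 CPM in CUS mice, and 1 of the 8 was called, lower in CUS. The astrocyte markers summed to 1945 to 2294 and 1772 to 2079 CPM, with 4 of 9 called lower. The inhibitory neuron markers summed to 1016 to 1201 and 929 to 1133 CPM, with 0 of 6 higher in CUS and 0 called. The striatal markers summed to 756 to 1314 and 1252 to 1507 CPM, but of the 9 genes only Pde10a, a phosphodiesterase also present in cortex and by far the most abundant of them, was higher in CUS, and their median log2 fold change was -0.77. In bulk tissue more neurons in a sample and more RNA per neuron cannot be told apart.

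The ratio of CUS to control means was 1.51 for Grin2a and 1.29 for Grin2b, against 1.19 for the summed excitatory markers. Single markers differed from their sum, as Neurod6 rose from 12.8 to 17.6 CPM with a log2 fold change of 0.46 and Nrn1 from 25.6 to 32.3 CPM with 0.34, beside 0.59 for Grin2a and 0.37 for Grin2b. Divided by the summed excitatory markers of the same mouse, a scale chosen after the data were seen, Grin2a was 0.446 to 0.586 in controls and 0.612 to 0.706 in CUS mice, without overlap (two-sided exact permutation test, p = 0.0159, the smallest that 4 against 5 mice can give). Grin2b on this scale was 0.673 to 0.744 in controls and 0.738 to 0.787 in CUS mice, with overlap (exact permutation p = 0.0317). Grin3a was 0.0332 to 0.0376 in controls and 0.0259 to 0.0277 in CUS mice, without overlap (exact permutation p = 0.0159), and Grin1 was 0.0622 to 0.0712 and 0.0609 to 0.0703, with overlap (exact permutation p = 0.175). The summed markers were themselves higher in CUS, so this scale lowers every gene in CUS mice. Of the 18394 genes tested in bulk, 0.245% were higher in CUS without overlap on this scale, as Grin2a was, and 25.4% were lower without overlap, as Grin3a was. All 6 members were compared on it and the p-values are not adjusted.

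The balance of both major GluN2 genes needs no scaling between libraries. Grin2a made up 39.4%, 40.7%, 44.1% and 42.6% of Grin2a plus Grin2b reads in the control mice and 48.9%, 45.1%, 45.6%, 44.7% and 44.1% in the CUS mice. The groups did not overlap, although control replicate 3 (44.06%) and CUS replicate 5 (44.07%) were nearly equal. The mean was 41.7% ± 2.04 (SD, n = 4) in controls and 45.7% ± 1.89 (SD, n = 5) in CUS mice, a difference of 3.95 percentage points (two-sided exact permutation test, p = 0.0159, the smallest possible). The shares are of reads, not of molecules per length, and compare mice only. They still depend on the mix of cells, since in nuclei the share ran from 27.1% to 67.3% between classes and marker levels differed between the bulk groups. The part of the cell mix in this difference was not tested.

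The nuclei show which cells held each member. Levels here are CPM of all UMIs of a class, as the mean and SD over 4 control mice, and they are not scaled by gene length, so they compare classes and not genes. Classes were defined from the same nuclei, differences between classes are described without a test, and orders of classes refer to the 26 with over 200 nuclei. Shares of nuclei with a UMI carry exact 95% binomial intervals that cover counting error only.

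Grin1 was broad among neurons. It was highest in Ex_L6-like nuclei at 694 ± 82.3 CPM, followed by the excitatory cluster led by Tshz2 at 640, the inhibitory cluster led by Foxp2 at 634 and Ex_L2/3-like nuclei at 633 CPM, and neighbours in this order overlapped between mice. Inhibitory classes lay at 409 (Inh_Vip-like) to 634 CPM. It was lowest in OPC-like nuclei, the oligodendrocyte precursors, at 128 ± 50.9 CPM and in Astrocyte-like nuclei at 66.0 ± 34.7 CPM. A Grin1 UMI was found in 73.3% (95% interval 70.7 to 75.8) of Ex_L6-like and 7.82% (5.67 to 10.5) of Astrocyte-like nuclei, with medians of 2126.5 and 1293 UMIs per nucleus. After thinning each nucleus that had at least 1000 UMIs to 1000, these shares were 51.0% and 6.13%.

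Among the 26 classes Grin2a was highest in Inh_Ndnf-like interneurons, the neurogliaform type of the superficial cortex. These nuclei had 1297, 1418, 1441 and 1261 CPM in the 4 control mice, a mean of 1354 ± 88.4 CPM, and every mouse was above the highest mouse of the next class, Ex_L5/6_NP-like nuclei at 1087 ± 87.0 CPM. With doublets kept this order turned, with 919 CPM in Inh_Ndnf-like and 1075 CPM in Ex_L5/6_NP-like nuclei. A smaller excitatory cluster of 138 nuclei led by Prox1 was higher still, at 1618 ± 130 CPM. The other interneuron types were spread widely, with Inh_Sst-like nuclei at 752, Inh_Pv-like at 442 and Inh_Vip-like at 299 CPM. Excitatory classes lay between 513 CPM (cluster led by Ctgf) and 1087 CPM. Thinned to 1000 UMIs, 62.2% of Inh_Ndnf-like and 22.2% of Inh_Vip-like nuclei held a Grin2a UMI (80.7% and 32.5% unthinned), against 14.2% of Astrocyte-like nuclei (16.8% unthinned).

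Grin2b was more even across neurons. Its highest class was the excitatory cluster led by Angpt1 at 1092 ± 145 CPM, followed by the one led by Ndst4 at 1045 ± 98.8 CPM, and these overlapped. Inh_Vip-like nuclei, low in Grin2a, had 788 CPM of Grin2b, and Striatal-like nuclei had 886 ± 91.5 CPM. The lowest levels were 279 ± 80.2 CPM in Oligodendrocyte-like and 187 ± 89.8 CPM in OPC-like nuclei. Microglia-like nuclei, which should lack these genes, held 545 CPM of Grin2a and 476 CPM of Grin2b, with 392 CPM of Grin1. Lower levels in other glial classes may in part be background. The Grin2a levels of Inh_Vip-like, Inh_Pv-like and Claustrum-like nuclei (523 CPM) also lay below the microglial level. So did those of the clusters led by C130073E24Rik (358 CPM), Ctgf and Nefm (342 CPM), and Grin2b in the cluster led by Tshz2 (369 CPM). The 6 excitatory markers summed to 2063 CPM in Microglia-like, 240 in Inh_Pv-like, 602 in Inh_Vip-like and 616 in Astrocyte-like nuclei. The microglial level is therefore not a common measure of background for all classes. Grin2a was 150 CPM in Astrocyte-like, 178 in OPC-like and 291 in Oligodendrocyte-like nuclei. How much of the signal in the classes below the microglial level is background was not tested. Thinned to 1000 UMIs, 35.5% of Microglia-like nuclei held a Grin2a UMI, above the share in Inh_Vip-like nuclei.

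Grin2c was found almost only in Astrocyte-like nuclei. The 4 control mice had 728, 489, 631 and 744 CPM there, a mean of 648 ± 117 CPM, and the next class, Oligodendrocyte-like nuclei, had 26.5 ± 32.0 CPM without overlap with the astrocytes. With doublets kept, the astrocyte mean was 386 CPM. A Grin2c UMI was found in 51.1% (46.8 to 55.5) of Astrocyte-like nuclei and in 0.114% (0.0140 to 0.412) of the deeper Ex_L2/3-like nuclei, and thinned to 1000 UMIs the shares were 39.4% and 0.0600%. Of 201 OPC-like nuclei, with a median of 1184 UMIs, 0 held one. With 3 counts taken as the limit, in place of the exact interval of the other shares, this allows a share of nuclei with a UMI of up to 1.49% (3 of 201). It sets no limit on expression below detection. Among the 26 classes Grin1 was lowest in the same Astrocyte-like nuclei.

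Grin2d, known as a GluN2 gene of interneurons, was sparse. Its highest mean was 26.8 ± 23.5 CPM in Inh_Vip-like nuclei, followed by 19.5 ± 17.7 in Inh_Sst-like, 18.0 ± 9.23 in the inhibitory cluster led by C130073E24Rik and 17.0 ± 9.82 CPM in Inh_Pv-like nuclei. These 4 inhibitory classes overlapped between mice and control replicate 4 had 0 Grin2d UMIs in both the Inh_Vip-like and Inh_Sst-like nuclei. A UMI was found in 5.29% (2.84 to 8.87) of Inh_Vip-like, 4.99% (3.03 to 7.68) of Inh_Sst-like and 4.80% (3.16 to 6.95) of Inh_Pv-like nuclei, against 0.686% (0.355 to 1.195) of Ex_L2/3-like nuclei, which were deeper. Thinned to 1000 UMIs the shares were 2.26%, 2.24%, 1.98% and 0.179%.

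Grin3a marked 2 unrelated classes. Inh_Sst-like interneurons had 955, 1250, 946 and 1026 CPM in the control mice, a mean of 1044 ± 142 CPM, and OPC-like nuclei had 823, 832, 653 and 566 CPM, a mean of 718 ± 131 CPM. Neither class overlapped with the next below it, and the third, Claustrum-like nuclei, had 212 ± 66.9 CPM. Grin3a was lowest in Ex_L6-like and Ex_L2/3-like nuclei, at 15.7 and 14.3 CPM. A UMI was found in 76.1% (71.5 to 80.3) of Inh_Sst-like and 52.7% (45.6 to 59.8) of OPC-like nuclei, against 3.49% (2.68 to 4.46) of Ex_L2/3-like and 2.53% (1.16 to 4.75) of Oligodendrocyte-like nuclei. Thinned to 1000 UMIs these shares were 56.6%, 48.6%, 0.716% and 2.48%.

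**Figure D2:**
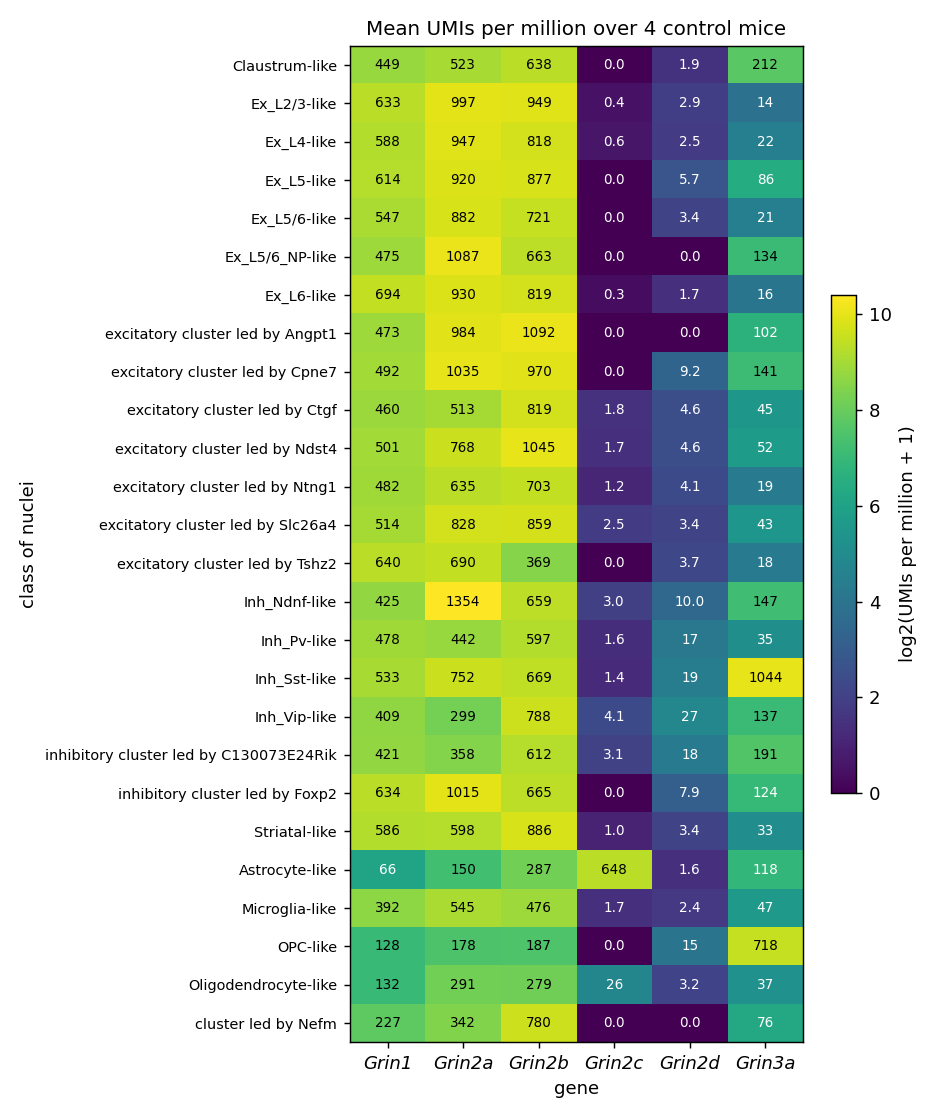
Mean level of each member (columns) in each of the 26 classes of nuclei (rows), in CPM of UMIs over 4 control mice, with the value printed in each cell and the color on a log2(value + 1) scale. Grin1, Grin2a and Grin2b fill the neuronal rows, Grin2c stands out in Astrocyte-like nuclei at 648, and Grin3a in Inh_Sst-like nuclei at 1044 and OPC-like nuclei at 718.

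Across the 26 classes, the pattern of Grin1 was close to that of Grin2a (Pearson r = 0.83 on log2(CPM + 1)) and of Grin2b (r = 0.74), while Grin2a and Grin2b had r = 0.69. Grin2c ran against Grin1 (r = -0.72), and Grin3a and Grin2d had r = 0.37. The 3 genes most like each member were 5330417C22Rik (r = 0.94), Sptbn4 and Eml5 for Grin1, Rapgef4 (r = 0.85), Rgsl1 and Grin1 for Grin2a, and Wdr7 (r = 0.86), Jakmip1 and Lclat1 for Grin2b. For Grin2c they were Aox1 (r = 0.90), Kirrel2 and Cbs, for Grin2d A530058N18Rik (r = 0.81), Mrps11 and Ankrd55, and for Grin3a Eif3d (r = 0.70), Rpl22l1 and Pcdh18. The 3 genes named for each member were those with the highest r among 12833 genes. All these correlations are descriptions over classes that share the same 4 control mice, and they carry no test.

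The share of Grin2a in Grin2a plus Grin2b UMIs differed between neuron types. It was highest in Inh_Ndnf-like nuclei at 67.3% ± 2.12 and lowest in Inh_Vip-like nuclei at 27.1% ± 7.43 (SD, n = 4 control mice), whose Grin2a level was below that of Microglia-like nuclei. The excitatory cluster led by Tshz2 was second at 65.6% ± 11.6, and its mice (57.1% to 82.6%) overlapped with those of Inh_Ndnf-like nuclei (64.9% to 69.8%). Ex_L5/6_NP-like nuclei had 62.2% ± 1.40, Ex_L4-like 53.7% ± 0.987, Ex_L2/3-like 51.4% ± 2.00, Inh_Pv-like 42.4% ± 1.30 and Striatal-like nuclei 40.4% ± 1.27. The excitatory cluster led by Ndst4 had 42.3% ± 0.873, and its 4 mice (41.1% to 43.2%) did not overlap with those of Ex_L2/3-like nuclei (50.3% to 54.4%). Values of the sparse classes spread more, as in the cluster led by Nefm, where the control mice ranged from 9.09% to 44.7% on few UMIs.

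In nuclei from the neocortex, no member passed the test between CUS and control mice. With the UMIs of all nuclei summed per mouse, 0 of the 4 members tested were called at an adjusted p under 0.2, with 0 at an unadjusted p under 0.05, and 1 of all 5017 genes was (0.0199%). In the 26 classes, 0 of 95 tests of a member in a class were called, 1 had an unadjusted p under 0.05, and 124 of 121409 tests over all genes were called (0.102%), with 5.90% at an unadjusted p under 0.05. Grin2d and, outside Astrocyte-like nuclei, Grin2c had too few UMIs for these fits. The edgeR likelihood ratio test and DESeq2 also called 0 members.

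Grin2a in all nuclei was 744, 852, 831 and 731 CPM in the control mice and 634, 801, 867 and 827 CPM in the CUS mice, and the groups overlapped. The log2 fold change was -0.01 ± 0.11 (SE) with an edgeR adjusted p of 0.969. Grin2b was 706, 894, 846 and 772 CPM in controls and 781, 826, 910 and 866 CPM in CUS mice, with a log2 fold change of 0.07 ± 0.10 (SE) and an edgeR adjusted p of 0.806. Grin1 was 596, 478, 502 and 563 CPM in controls and 681, 668, 519 and 518 CPM in CUS mice, with a log2 fold change of 0.16 ± 0.13 (SE) and an edgeR adjusted p of 0.691. Grin3a was 77.1 to 95.3 CPM in controls and 71.6 to 95.9 CPM in CUS mice, with an edgeR adjusted p of 0.857.

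By class, Grin1 was higher in CUS in 24 of 26 classes, with a median log2 fold change of 0.16 and none called. The smallest unadjusted p of Grin1 from edgeR was 0.0565, in the inhibitory cluster led by C130073E24Rik, and in Ex_L6-like nuclei, its highest class, the values were 793, 612, 642 and 728 CPM in controls and 971, 907, 657 and 653 CPM in CUS mice. The classes come from the same 8 mice, and in 2 of the CUS mice, replicates 1 and 2, Grin1 lay above the controls while the other 2 lay among them. By correlation of deviations from the group means over genes, the mice could be split into 2 sets after the data were seen. Control replicates 1 and 4 went with CUS replicates 1 and 2 (r = 0.05 to 0.54). Control replicates 2 and 3 went with CUS replicates 3 and 4 (r = 0.29 to 0.54). The split was not clean. Control replicate 4 and CUS replicate 1, of the same set, had r = 0.05, against 0.07 for control replicate 3 and CUS replicate 1, across the sets. Deviations from a group mean cancel within the group, so negative correlations across the sets are partly built in. In Ex_L6-like nuclei the first set had 793 and 728 CPM in controls and 971 and 907 in CUS mice. The second had 612 and 642, and 657 and 653. The labels do not say whether these sets are batches, and no fit separated them. Grin2a was higher in 10 and lower in 16 classes with a median of -0.05, and Grin2b was higher in 18 and lower in 8 with a median of 0.08.

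Grin3a was lower in 11 and higher in 5 of the 16 classes in which it was tested. Its largest difference was in Ex_L5-like nuclei, with a log2 fold change of -0.55 ± 0.27 (SE), an unadjusted p of 0.0440 and an edgeR adjusted p of 0.757. In Inh_Sst-like nuclei the CUS mice had 874, 1586, 926 and 907 CPM, and all but replicate 2 lay below the control mice (edgeR adjusted p = 0.989). In OPC-like nuclei Grin3a had 559, 752, 517 and 646 CPM in CUS mice, with a log2 fold change of -0.23 ± 0.22 (SE) and an edgeR adjusted p of 0.991. Grin2c in Astrocyte-like nuclei had 664, 757, 599 and 544 CPM in CUS mice and a log2 fold change of 0.02 ± 0.18 (SE), with an edgeR adjusted p of 0.999.

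Grin2d was too sparse for the fits, and its summed values in interneurons are given because they stood apart in one pool of nuclei after the data were seen. In the 2849 nuclei of the 4 Inh_ classes together (Inh_Ndnf-like, Inh_Vip-like, Inh_Sst-like and Inh_Pv-like), the control mice had 15.0, 26.1, 23.9 and 6.97 CPM of Grin2d, from 9, 29, 25 and 3 UMIs, and the CUS mice 35.8, 29.1, 31.7 and 34.1 CPM, from 26, 17, 21 and 39 UMIs. Every CUS mouse lay above every control mouse in this pool, and of the 10942 genes with at least 50 UMIs there, 2.76% had groups that did not overlap and 1.54% had CUS higher in this way. With the 1219 nuclei of the inhibitory clusters without a type name added, Grin2d was 15.0, 20.9, 22.8 and 13.7 CPM in controls and 31.9, 22.2, 30.4 and 27.3 CPM in CUS mice, and the groups overlapped. In this larger pool 2.88% of genes had groups that did not overlap, with CUS higher in 1.50%. In excitatory nuclei Grin2d was 2.54 to 5.47 CPM in controls and 2.60 to 4.90 CPM in CUS mice, and the groups overlapped.

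**Figure D3:**
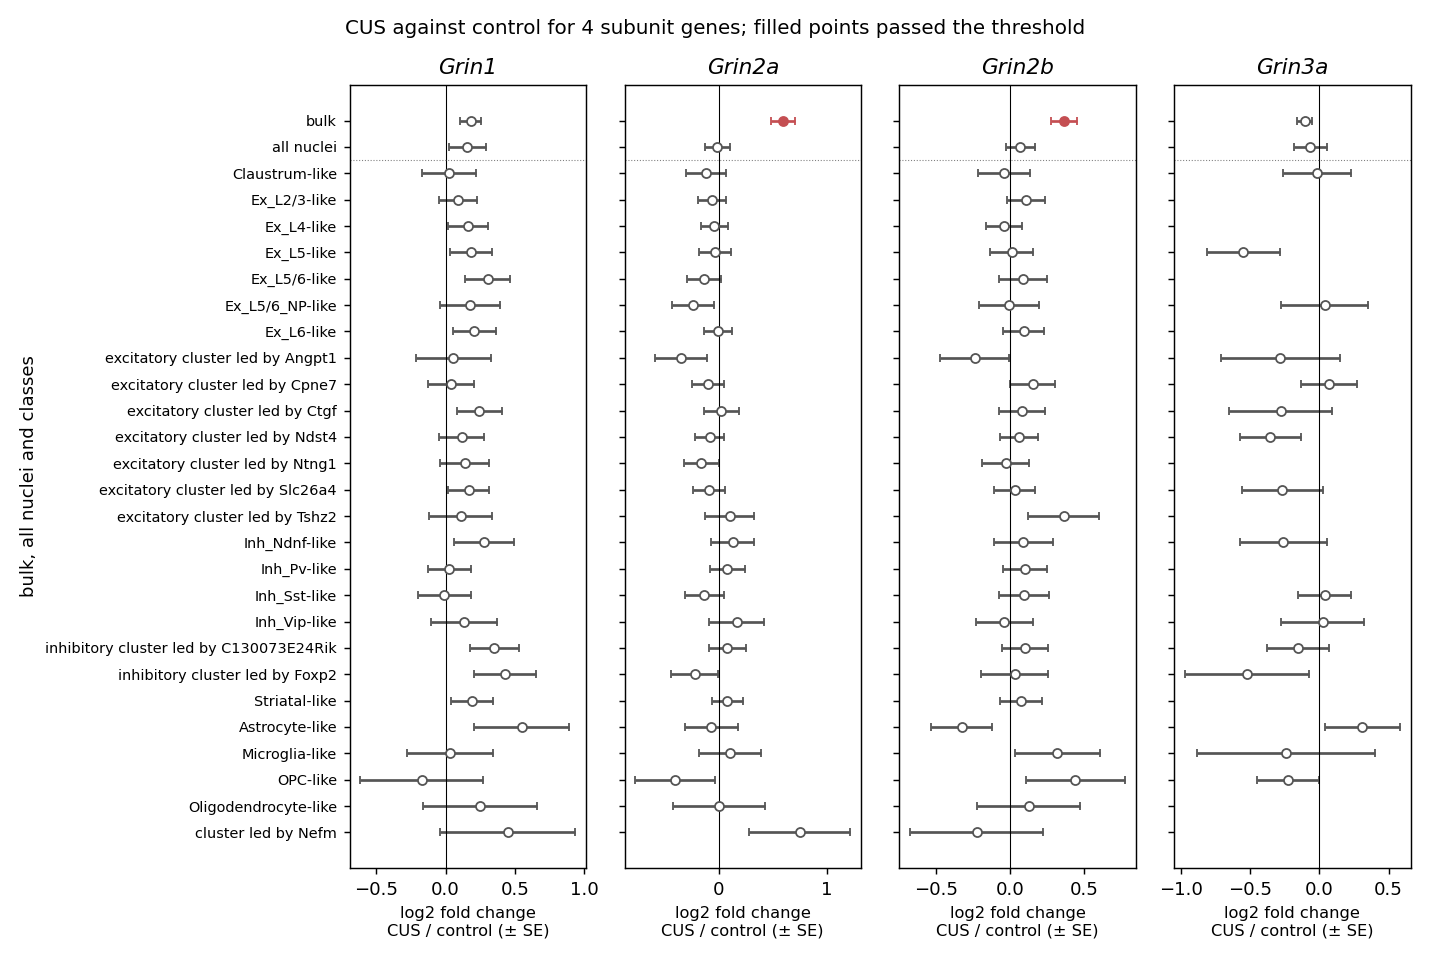
Log2 fold change of CUS over control with its SE for Grin1, Grin2a, Grin2b and Grin3a in bulk mPFC, in all nuclei and in each class where the gene was tested. Filled red points passed the threshold, which only Grin2a (0.59) and Grin2b (0.37) in bulk did, and the points of Grin1 lie right of 0 in 24 of 26 classes.

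In nuclei the mean Grin2a share was lower in CUS than in control mice, and the difference did not pass the exact permutation test at an adjusted p under 0.05, the threshold used for tests of a single value, although in excitatory nuclei it lay under the 0.2 used for the gene fits in nuclei. In all excitatory nuclei it was 53.14%, 49.98%, 50.41% and 49.92% in the control mice and 45.7%, 50.1%, 49.2% and 49.3% in the CUS mice. The mean was 50.9% ± 1.53 in controls and 48.6% ± 1.97 in CUS mice (SD, n = 4 each, two-sided exact permutation p = 0.0857, 0.171 adjusted over both groups of neurons). CUS replicate 1 lay below the other CUS mice, and without it the difference was -1.33 percentage points in place of -2.29. With doublets kept, or with at least 1000 genes per nucleus, the exact permutation p was 0.0286, the smallest possible, and 0.0571 adjusted. An adjusted p under 0.05 could be reached only if both groups of neurons had the smallest possible p. The test therefore could not pass a difference in excitatory nuclei alone, and no conclusion is drawn from its failing 0.05. In the nuclei of the 4 Inh_ classes it was 48.7% ± 1.14 and 47.8% ± 3.74 (exact permutation p = 0.8), and 47.4% ± 1.44 and 46.4% ± 3.33 with the inhibitory clusters without a type name added (exact permutation p = 0.686), where the smallest p that 4 against 4 mice allow is 0.0286. Without CUS replicate 1 the difference in the 4 Inh_ classes turned to 0.882 percentage points, higher in CUS. The bulk and nuclei experiments used other mice, another age and another extent of cortex. They also used another time after stress, as bulk mice were taken after the last behavioral test and mice for nuclei after the final stressor. The difference between the experiments was not tested.

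The difference of the CUS effect between excitatory nuclei and those of the 4 Inh_ classes was tested for the 5 members with UMIs in both in every mouse, and none had an adjusted p under 0.05 or under 0.2. With 4 against 4 mice the smallest unadjusted p is 0.0286. After adjustment over the 5 members, a single member with this p can fall under 0.2 but not under 0.05. The lack of a call at 0.05 therefore says little about any single member. For Grin2a, the log2 ratio of excitatory to inhibitory CPM was 0.53 ± 0.06 in controls and 0.46 ± 0.13 in CUS mice (SD, n = 4 each, exact permutation p = 0.371, adjusted 0.464). For Grin1 it was 0.29 ± 0.07 and 0.39 ± 0.09 (exact permutation p = 0.171, adjusted 0.429), and for Grin3a -2.92 ± 0.20 and -3.24 ± 0.35 (exact permutation p = 0.2, adjusted 0.429). The difference for Grin1, 0.11, was 0.02 with the inhibitory clusters without a type name added, 0.07 without CUS replicate 1 and 0.15 without CUS replicate 4. The difference for Grin2a, -0.08, was -0.03 without CUS replicate 3 and -0.13 without CUS replicate 1. That for Grin3a, -0.31, was -0.16 without CUS replicate 2 and -0.51 with at least 1000 genes per nucleus. The largest difference was that of Grin2d, at -2.19 ± 1.33 in controls and -3.11 ± 0.43 in CUS mice, a difference of -0.92 (exact permutation p = 0.257, adjusted 0.429). This difference was -0.30 without control replicate 4, -0.53 with the inhibitory clusters without a type name added and -1.30 without control replicate 2.

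**Figure D4:**
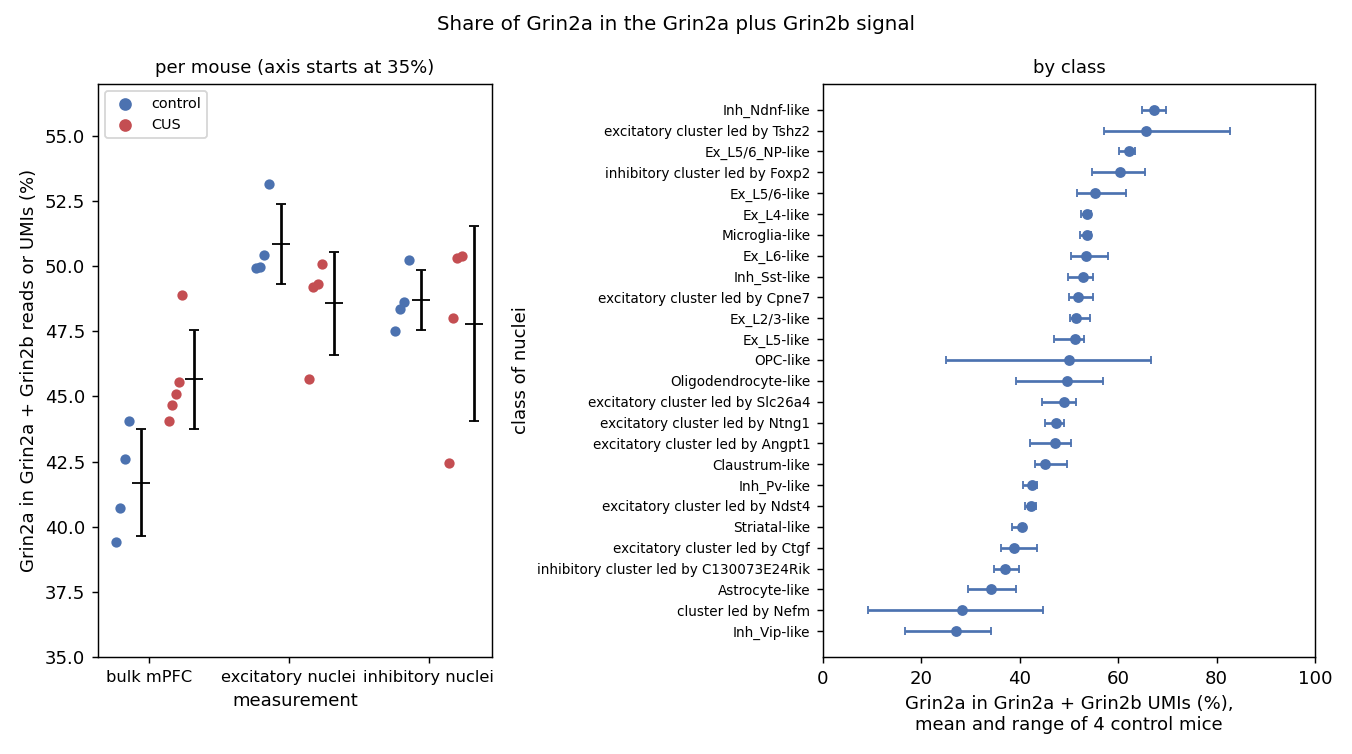
Left, Grin2a as a percentage of Grin2a plus Grin2b reads (bulk) or UMIs (excitatory nuclei, and inhibitory nuclei of the 4 Inh_ classes), with 1 point per mouse, the mean ± SD as a black bar and an axis that starts at 35%. Right, the same share in each class as the mean and range of 4 control mice, from 67.3% in Inh_Ndnf-like to 27.1% in Inh_Vip-like nuclei.

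Genes that work with the receptor were read from the same fits. Of 12 genes for co-agonist supply and removal tested in bulk, 2 were called lower and 0 higher in CUS, against 2.13% lower and 1.16% higher of all genes tested, with a median log2 fold change of -0.12 against 0.01 over all genes. Phgdh, the first enzyme of serine synthesis, had 14.2 CPM in controls and 10.6 in CUS mice, with a log2 difference of -0.43 ± 0.09 (SE) and an edgeR adjusted p of 0.0307. Gldc, the glycine decarboxylase that removes glycine, had 16.8 CPM in controls and 12.2 in CUS mice, with a log2 difference of -0.46 ± 0.10 (SE) and an edgeR adjusted p of 0.0368. The summed astrocyte markers were also lower in CUS (ratio of means 0.901), and their part in these values was not tested.

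Of 16 anchoring and trafficking genes 1 was called, and of 20 kinase, phosphatase and signalling genes 2, all higher in CUS, against 1.16% of all genes tested, with medians of 0.02 and 0.07. Lin7b, a scaffold protein of the complex that carries GluN2B along dendrites, rose from 16.6 to 20.6 CPM (edgeR adjusted p = 0.0307). Ptpn5, the phosphatase STEP that acts on GluN2B, rose from 101 to 128 CPM (edgeR adjusted p = 0.0369). Prkcb, a protein kinase C isoform, rose from 641 to 854 CPM (edgeR adjusted p = 0.0495). Each of these 5 calls was lost in 5 to 9 of the 14 alternative fits. In all nuclei 0 of the 30 partner genes tested were called, and 3 had an unadjusted p under 0.05, against 8.43% of all genes tested there.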

How the data were processed

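Bulk nuclear RNA-seq files held the authors' whole-number read counts per gene, made from uniquely mapped reads (STAR, mm10, ribosomal RNA-depleted stranded kit) with their own programs. The annotation and the use of strand are not given in the sources used here. The sNucDrop-seq files held the authors' deposited UMI counts per gene and barcode, with exonic and intronic reads on the annotated strand merged by UMI (mm10, Gencode vM13). Each file is 1 sample, grouped by its title.

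Bulk counts were tested with the edgeR 4.0.16 quasi-likelihood test (TMM, filterByExpr, condition only, Benjamini-Hochberg adjusted p under 0.05). The SE is the size of the log2 fold change divided by the square root of F. Of 40000 barcodes, 31611 passed the study's range of detected genes and 31481 its mitochondrial limit, after 5 single-base barcodes were dropped. Doublets (4838, 15.4%, scanpy 1.11.5 Scrublet scores above 0.2) were removed, which left 26643, fewer than the study kept. Seurat 5.3.0 clustered them on 1998 variable genes, 50 components and resolution 1. Class names were rebuilt from fixed markers, so classes may differ from the study's. UMIs were summed per mouse and class and tested as above, for genes with UMIs above 10% of the nuclei, at an adjusted p under 0.2. The study reports a profound batch effect in its nuclei. Its batch term could not be used because the labels do not give batches, so mouse batches were not separated. Alternatives were the likelihood ratio test, DESeq2 1.42.0, library sizes left unscaled, low counts left unfiltered, a replicate block, other filters and resolutions, and leaving out each mouse. Exact permutation tests of the shares and of the excitatory to inhibitory difference used a p under 0.05, adjusted in nuclei. The fits were tested on simulated data.

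Named genes were the 6 members, the partner genes past the threshold in bulk or all nuclei, and, per member, the 3 genes with the most similar pattern over classes. Single marker genes, Snap25, Kdelr1 and Grin3b are named outside this rule, after their values were seen. The members and lists were chosen with earlier results of these data known. Replicates are mice as labelled, and p-values set the difference between groups against the spread between mice. In nuclei this spread includes any batch effect. One stretch of sequence and the name of one marker gene are not reported here.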

Additional observations from a re-analysis of the deposited data

Results flagged for a closer look

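In 5 of the 76 groups of mice examined, 1 mouse stood apart from the others of its group, and about 1 group in 20 is expected to by chance. Control replicate 4 had a bulk Grin2d level of 3.38 CPM, against 4.11 to 4.18 CPM in the other control mice. The same replicate number in the nuclei, another animal, had 26.1 CPM of Grin2c over all nuclei against 11.3 to 13.0 in the other controls, and 6.46% of its nuclei were Astrocyte-like, against 3.08% to 4.23%. Grin2c in the nuclei of the 4 Inh_ classes was 6.67 CPM in control replicate 1, from 4 UMIs, against 0 to 0.955 CPM in the others. Grin3a in Inh_Sst-like nuclei was 1586 CPM in CUS replicate 2, against 874 to 926 CPM in the other CUS mice. The Grin2a share in excitatory nuclei was 53.1% in control replicate 1, against 49.9% to 50.4% in the other controls, and without this mouse the difference between CUS and control was -1.53 percentage points in place of -2.29, against -1.33 without CUS replicate 1.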

How the results depend on the processing

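The number of bulk genes called was 606, against 1330 with the likelihood ratio test, 1413 with DESeq2, 238 with the replicate block and 133 to 1508 when 1 mouse was left out, with the most calls without control replicate 3. Of the 6 members, 2 were called in the likelihood ratio, DESeq2, unscaled and unfiltered fits, 1 with the replicate block and 0 to 3 with 1 mouse left out. Grin2b had an adjusted p of 0.0545 with the block. Without TMM factors 202 genes were called higher and 613 lower in bulk, against 214 and 392. Replicate numbers did not pair the mice (correlation of deviations 0.02 to 0.15 in bulk for same-numbered mice and -0.46 to 0.39 in nuclei). In nuclei the mice could be split into the 2 sets named with Grin1, with correlations of -0.60 to 0.07 across the sets and 0.05 to 0.54 within them. In all nuclei 1 gene was called, against 16 with the likelihood ratio test, 20 with DESeq2, 302 without a filter and 0 to 783 with 1 mouse left out, the most without CUS replicate 2. Over the classes 124 tests were called, against 349 with the likelihood ratio test, 247 without a filter, 321 with the replicate block and 43 to 1358 with 1 mouse left out, again the most without CUS replicate 2. No member was called in nuclei under any of the 17 alternatives for classes. The bulk Grin2a share differed by 3.15 to 4.74 percentage points with 1 mouse left out. In nuclei the Grin2a share difference in the 4 Inh_ classes turned to 0.882 percentage points without CUS replicate 1 and was -1.77 without CUS replicate 3. The log2 fold change in all nuclei turned to 0.0300, 0.0173 and 0.0892 for Grin2a without control replicate 2, control replicate 3 and CUS replicate 1 (lowest -0.0592 without CUS replicate 2), and to 0.00843 and 0.00119 for Grin3a without control replicate 2 and CUS replicate 1 (lowest -0.20 without CUS replicate 2). For Grin1 it was 0.06 without CUS replicate 2 to 0.25 without CUS replicate 4, and for Grin2b 0.02 without control replicate 1 to 0.13 without control replicate 2, with no call. Levels divided by the summed excitatory markers and the larger pool of inhibitory nuclei were added after the data were seen. The highest class changed for Grin2a and Grin2d when doublets were kept and for Grin2b when nuclei with under 1000 genes were left out. Grin2c in Astrocyte-like nuclei was 386 to 502 CPM in those settings, and Grin2a in Inh_Ndnf-like nuclei was 919 CPM with doublets kept. The causes were not tested. Low UMI counts limit Grin2c and Grin2d in nuclei, and 8 mice of unknown batch limit the class tests.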
